A study of Mus musculus with 10 samples.

Results

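The GABA-A receptor subunits described here are the products of 7 genes, Gabra2, Gabra3, Gabra4, Gabra5, Gabrb1, Gabrb2 and Gabrd. They are taken by name, with every probe of each gene. On the arrays they are read by 11 of 41174 probes, belonging to 7 of the 18539 genes that could be named. Gabrb2 has 3 probes, Gabra3 and Gabra5 have 2 each, and the other genes have 1 each. Each probe is a single spot.

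Left hemibrain RNA of 10 male C57BL/6J mice was labeled with Cy5, and another RNA was hybridized with it in Cy3. The mice were bought at 3 weeks of age and housed singly, and they were 5 months old after 20 weeks of diet. Each array carries 1 animal, so the measure of a gene is the log2 ratio of Cy5 to Cy3 on each of 10 arrays, named here by the animal (C10-413 to C10-437). The diet of each animal was not settled, since the diet entries of the labels give the n-3 PUFA enriched diet (FD) for every Cy5 sample, the sample descriptions call the same samples controls, and the methods name mice of both FD and the standard lab diet (SD). No comparison of diets was therefore made, and the spread over the 10 mice holds any effect of diet. The Cy3 RNA is labelled as pooled hemibrain of SD-fed mice, whereas the methods name a commercial reference RNA. No array had the dyes swapped, so the effect of the dye and that of the RNA cannot be told apart.

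GABA-A receptors are chloride channels that open when the transmitter GABA binds, and they carry most fast inhibition in the brain. A channel is a pentamer, usually built from alpha and beta subunits together with a gamma or a delta subunit. The alpha subunit sets much of the pharmacology and of the place of the receptor in the cell, GABA binds where alpha and beta meet, and receptors with the delta subunit sit mostly outside synapses, where they respond to low ambient GABA. Many of the genes lie in clusters. In the annotation used for names, Gabra2, Gabra4 and Gabrb1 lie on chromosome 5 together with Gabrg1, with no coding gene between Gabra4 and Gabrb1. Gabra5 lies on chromosome 7 beside Gabrg3, Gabrb2 on chromosome 11 beside Gabra6, Gabra3 on chromosome X beside Gabrq, and Gabrd on chromosome 4.

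The DNA just upstream of the starts is shown for 3 of the genes, because their ratios were all high in the hemibrain while the sequences are of different kinds. RefSeq (GRCm38.p6) gave 10 start windows for 6 of the 7 genes. Each was searched on both strands, over the 250 bases before the start, for letters known from promoters. These were GGGCGG, called the GC box, then CCAAT, the box of the same name, then TATAAA, the TATA box, then CACGTG, an E-box, and last TGACGTCA, the cyclic AMP response element. No match overlapped another in the windows shown. Capitals mark the matches.
Gabra2, chr5:71095850-71096099, minus strand: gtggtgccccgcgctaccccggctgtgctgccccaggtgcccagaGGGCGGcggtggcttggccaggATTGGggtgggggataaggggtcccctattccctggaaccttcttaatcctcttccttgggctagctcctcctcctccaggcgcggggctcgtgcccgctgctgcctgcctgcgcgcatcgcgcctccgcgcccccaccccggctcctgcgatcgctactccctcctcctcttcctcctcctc
Gabra3, chrX:72656920-72657169, minus strand: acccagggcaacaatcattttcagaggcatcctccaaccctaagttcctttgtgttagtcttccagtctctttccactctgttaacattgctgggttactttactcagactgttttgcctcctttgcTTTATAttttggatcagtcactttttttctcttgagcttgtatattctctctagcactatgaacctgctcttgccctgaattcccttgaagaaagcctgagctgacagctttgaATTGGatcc
Gabrb2, chr11:42420190-42420439, plus strand: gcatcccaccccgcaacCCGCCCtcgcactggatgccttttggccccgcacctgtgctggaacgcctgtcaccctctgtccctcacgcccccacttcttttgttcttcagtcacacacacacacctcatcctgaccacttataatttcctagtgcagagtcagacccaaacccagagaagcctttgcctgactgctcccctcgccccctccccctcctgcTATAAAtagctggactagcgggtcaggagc
The Gabra2 window is 70.0% G and C with 18 CpG pairs, and it holds a GC box and a CCAAT on the opposite strand. The Gabra3 window is 42.4% G and C with 0 CpG pairs, with a CCAAT match and, from 123 bases before the start, a TATAAA match, both on the opposite strand. The Gabrb2 window shown is 58.8% G and C with 8 CpG pairs, with a GC box on the opposite strand and a TATAAA match that begins 30 bases before the start. Other start windows of these genes differed. Those of Gabrb2, at 54.0% and 36.8% G and C, held 0 GC boxes and 0 TATAAA matches. In another Gabra3 window, the TATAAA match lay from 235 bases before the start. Among all 32851 windows of this length in the table, the median was 52.4% G and C and 6 CpG pairs, 32.7% held the GC box, 33.8% the CCAAT box and 12.4% the TATA box. The E-box was held by 6.02% and the cyclic AMP response element by 1.55% of all windows, and each by 0 of the 10 windows of these genes. A match is a run of letters, and binding was not measured.

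The hemibrain label of the Cy5 samples was set against marker genes. Every one of the 8 neuronal, 6 astrocyte, 6 oligodendrocyte and 5 microglial markers was well above background in Cy5 on all arrays. The median ratio of the neuronal list lay between 5.46 and 6.35 over the arrays, that of the inhibitory neuron list between 5.75 and 7.56, and that of 6 genes of dividing cells between -6.22 and -5.69. These ratios go against the label that makes the Cy3 RNA hemibrain as well. Of the genes of dividing cells, 4 were well above background in Cy5 on all arrays. The astrocyte (5.15 to 5.70) and oligodendrocyte (5.04 to 5.86) lists were high too. Lists of endothelium, cortex and hippocampus, striatum and cerebellum lay between 1.60 and 5.30. The microglial list (0.99 to 1.42) and 6 thalamic genes (-0.04 to 0.69) lay nearer 0. The array of C10-434 stood apart in brightness. The share of probes well above background was 49.8% in Cy5 and 61.9% in Cy3 there, while the remaining 9 arrays had 68.2% to 76.9% in Cy5 and 70.3% to 79.1% in Cy3. No spot of any probe was saturated.

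All 11 subunit probes were higher in the hemibrain than in the Cy3 RNA at an adjusted p under 0.05 (limma, Benjamini-Hochberg over all probes). The same call was made for 37.4% of all probes, and 39.5% were lower. Against a log2 ratio of 1 in place of 0, all 11 were again higher, as were 16.8% of all probes. The median log2 ratio over the arrays lay between 2.99 and 9.33 for the 11 probes, whereas it was 0.04 over all probes, with a 90th percentile of 2.36. With the brightest probe of each gene, the medians ran from Gabra4 (9.33) through Gabrb2 (7.61), Gabrb1 (5.89), Gabrd (5.61), Gabra2 (5.14) and Gabra3 (4.33) to Gabra5 (2.99). The 7 brightest probes were above 0 on each array that gave a value. Of all genes, 29.8% had values above 0 on all 10 arrays with none left out. That count is stricter, since Gabra3 gave a value on 9 arrays and Gabra4 on 6. The ratios are of RNA from whole hemibrain, so more cells that make a subunit and more of its RNA per cell cannot be told apart.

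**Figure D1:**
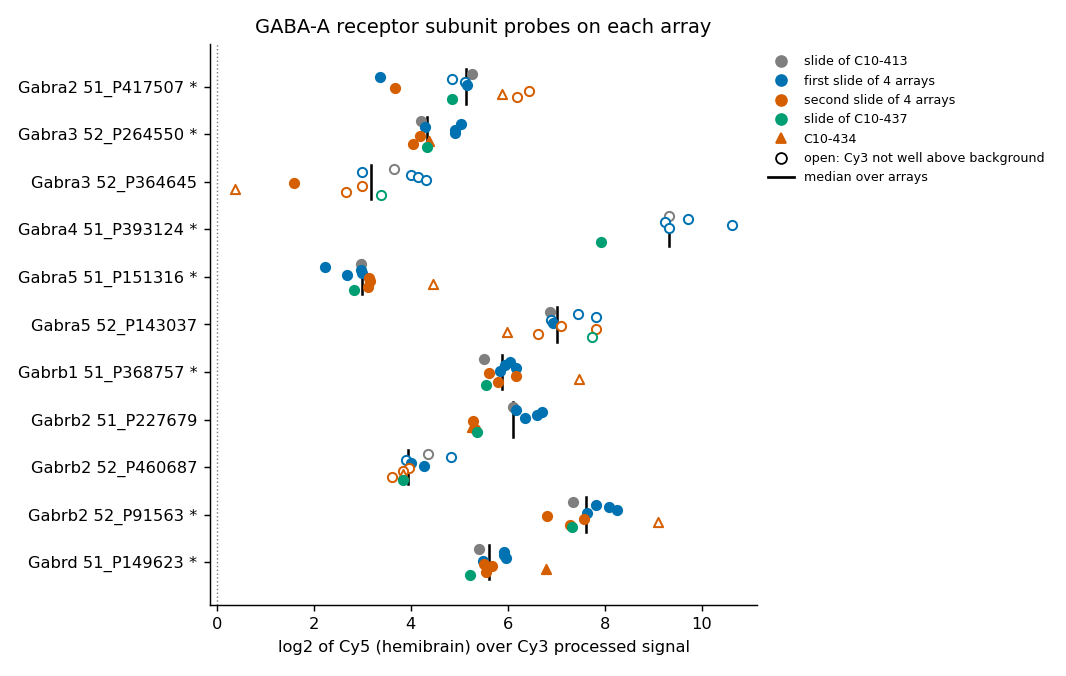
Log2 ratio of Cy5 (hemibrain) to Cy3 for the 11 probes of the 7 subunit genes, 1 point per array. Colors mark the slide, the triangle marks C10-434, open symbols mark arrays where Cy3 was not well above background, the bar is the median over arrays and an asterisk marks the brightest probe of a gene. All points lie above 0, and the probes of Gabra5 and of Gabrb2 lie apart from each other.

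Among the alpha subunits, Gabra4 had the highest ratio. Its product forms extrasynaptic receptors with delta, and it is known from thalamus, striatum and hippocampus. Its log2 ratio ranged from 7.93 (C10-437) through a median of 9.33 to 10.62 (C10-417) on 6 arrays. The mean was 9.36 ± 0.29 (SE, n = 6), with an adjusted p of 4.86e-09 from limma, and 10 probes of the whole array had a higher median. On the other 4 arrays, which are all of the second slide that holds 4 arrays, the software flagged the spot as not uniform in Cy5, and these values were left out. With the flagged spots kept they were 7.14 (C10-424), 8.65 (C10-425), 8.72 (C10-434) and 8.72 (C10-435), and the median over 10 arrays was 8.98. The size of the ratio is uncertain because the Cy3 signal was well above background on 2 of the 10 arrays only. On the single array that kept its spot and was well above background in both dyes, C10-437, the ratio was 7.93, the lowest kept.

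Gabra2, whose product is found at synapses in hippocampus, cortex and striatum, varied widely over the arrays. Its log2 ratio ran from 3.36 (C10-415) through a median of 5.14 to 6.43 (C10-425). The mean was 5.08 ± 0.28 (SE, n = 10), with an adjusted p of 2.01e-09 from limma. The low values were those of C10-415 and C10-424 (3.67), and 3 arrays of the second slide were the highest. Cy3 was not well above background on those 3 arrays. On the 5 arrays well above background in both dyes, the ratio lay between 3.36 and 5.26 with a median of 4.86, a 29.0-fold difference. The hemibrain signal itself also varied, from 508 on C10-415 to 2853 on C10-437.

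Gabra3 is X-linked, and its product is a synaptic alpha subunit of brainstem, thalamic reticular and cortical cells. On 9 arrays the log2 ratio of its brighter probe (A_52_P264550) ran from 4.05 (C10-435) through a median of 4.33 to 5.03 (C10-415), a range of 0.98, and the spot of C10-425, at 3.61, was flagged and left out. The mean was 4.48 ± 0.12 (SE, n = 9), with an adjusted p of 8.58e-12 from limma, and Cy3 was well above background on all arrays. The second probe (A_52_P364645) was the dimmest, with hemibrain signals between 27.8 and 215. Its ratio ran from 0.38 (C10-434) through a median of 3.19 to 4.31 (C10-423), and Cy3 was well above background on 1 array, C10-424, where the ratio was 1.59. On C10-434 its Cy5 signal, 27.8, was not well above background either.

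Gabra5, whose product is concentrated in the hippocampus and mostly extrasynaptic, was read very differently by its probes. The brightest by the product of both dyes (A_51_P151316) gave ratios from 2.23 (C10-415) through a median of 2.99 to 4.46 (C10-434), a 7.93-fold difference at the median. The other (A_52_P143037) gave 5.98 (C10-434) through 7.01 to 7.82 (C10-425), a 129-fold difference at the median. These ranges did not overlap. The probes differed by 4.06 ± 1.05 (SD, n = 10), in the same direction on 10 of 10 arrays, with an exact paired permutation p of 0.00195 (two-sided, the smallest that 10 arrays can give, and 0.00391 after adjustment over 5 probe pairs). On C10-434, 1 probe was at its highest and the other at its lowest. Cy3 was well above background on 9 arrays for the first probe and on 2 for the second, whose Cy3 signal was faint, between 12.6 and 53.1. The median Cy5 signal of the second probe was also higher, 3515 against 1626. On the 2 arrays where the second probe passed in Cy3, C10-413 and C10-423, it gave 6.87 and 6.93. The first probe gave 2.97 and 2.69 there. The cause of the gap was not tested.

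The beta subunits are needed for the channel to reach the membrane. Gabrb2, a beta subunit found at synapses through much of the brain, gave high ratios by all 3 probes. The brightest (A_52_P91563) ran from 6.80 (C10-424) through a median of 7.61 to 9.10 (C10-434), a mean of 7.72 ± 0.18 (SE, n = 10) with an adjusted p of 6.85e-13 from limma. The next (A_51_P227679) ran from 5.27 (C10-434) through 6.12 to 6.72 (C10-416) on 9 arrays, the spot of C10-425 being flagged. The last (A_52_P460687) ran from 3.62 (C10-435) through 3.94 to 4.83 (C10-415), with Cy3 well above background on 3 arrays. The probes kept this order on every array where they were compared. The brightest exceeded the last by 3.67 ± 0.73 (SD, n = 10), a 12.7-fold difference in ratio, and the next by 1.82 ± 0.79 (SD, n = 9), both with an adjusted exact paired permutation p of 0.00391. At their medians the 3 probes gave 195-fold, 69.4-fold and 15.4-fold.

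Gabrb1 ran from 5.52 (C10-413) through a median of 5.89 to 7.46 (C10-434), a 59.3-fold difference at the median. Its mean was 6.01 ± 0.16 (SE, n = 10), with an adjusted p of 2.16e-12 from limma. The other 9 arrays lay within 0.66 of each other, at up to 6.18.

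Gabrd codes for the delta subunit, known from cerebellar and dentate granule cells and from thalamus. It ran from 5.21 (C10-437) through a median of 5.61 to 6.80 (C10-434), a 48.8-fold difference at the median. Its mean was 5.74 ± 0.13 (SE, n = 10), with an adjusted p of 5.43e-13 from limma. It was well above background in both dyes on every array. The other 9 arrays reached at most 5.95.

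**Figure D2:**
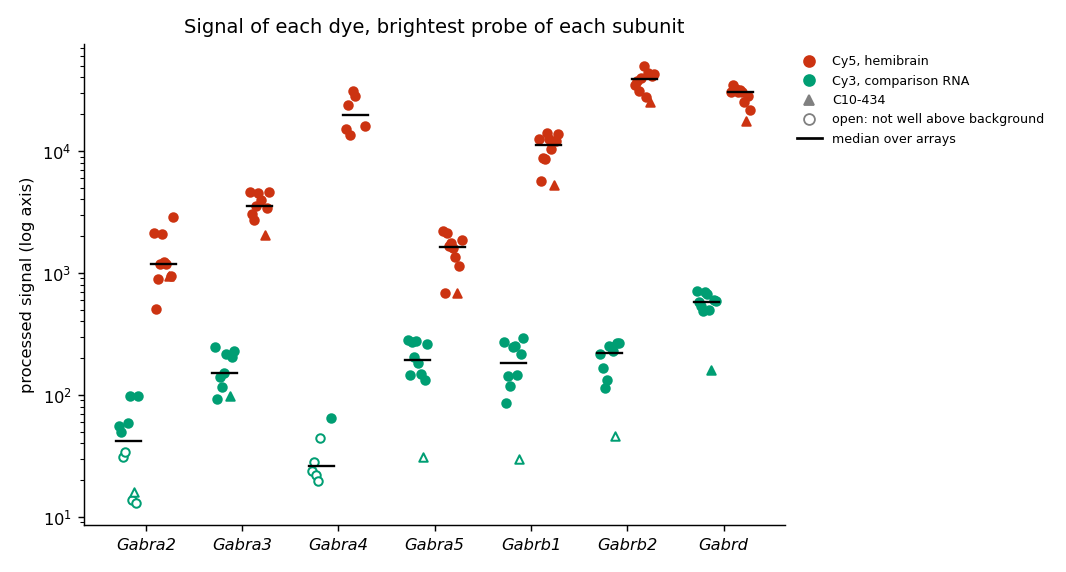
Processed signal of each dye (log axis) for the brightest probe of each subunit, 1 point per array, with the median as a bar. Open symbols were not well above background, triangles are C10-434, and flagged spots are left out. The Cy5 points lie above the Cy3 points for each subunit, and most Cy3 points of Gabra2 and Gabra4 lie under 60.

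Neighbours in the order of the medians were compared within arrays, with exact paired permutation tests (two-sided, adjusted over 6 pairs). The pairs and their direction were taken from these same ratios, so the p-values are no independent test of the order. Gabrb2 exceeded Gabrb1 by 1.71 and Gabrb1 exceeded Gabrd by 0.27, each on 10 of 10 arrays (adjusted exact p = 0.00586 for both). With normexp background correction Gabrb1 and Gabrd turned, with medians of 4.92 and 5.17. Gabra3 exceeded Gabra5 by 1.43 on 8 of 9 arrays (adjusted exact p = 0.0156), but with the mean over all probes of a gene they turned, with medians of 3.90 and 5.03. The place of Gabra4 over Gabrb2 was not settled. Gabra4 was higher by 1.62 on average over the 6 arrays that kept its spot, and on each of them (adjusted exact p = 0.0469). Of these arrays, 5 were not well above background in Cy3 for Gabra4. With normexp the medians were 5.50 for Gabra4 and 6.54 for Gabrb2. With the flagged spots kept, Gabra4 was lower on C10-434 (8.72 against 9.10). It was higher on C10-424 (7.14 against 6.80), C10-425 (8.65 against 7.57) and C10-435 (8.72 against 7.28). Gabrd over Gabra2, at 0.67 ± 1.02 (SD), higher on 8 of 10 arrays, and Gabra2 over Gabra3, at 0.45 ± 1.11 (SD), higher on 7 of 9, did not pass (adjusted exact p = 0.0844 and 0.25). All neighbours overlapped in their ranges over the arrays. The order is one of ratios to the Cy3 RNA and not of abundance, and it depends on the probe. By its second probe Gabra5 would stand at 7.01 in place of 2.99, and by its dimmest probe Gabrb2 at 3.94 in place of 7.61.

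C10-434 was the highest array for 4 of the 7 subunits by their brightest probes, Gabra5, Gabrb1, Gabrb2 and Gabrd. The next highest arrays reached 3.17, 6.18, 8.24 and 5.95, so that this array stood above them by a visible gap. It was the lowest array for 3 other probes, those of Gabra5 (A_52_P143037, 5.98), Gabrb2 (A_51_P227679, 5.27) and Gabra3 (A_52_P364645, 0.38). The Cy3 signal of those 3 probes was not at its lowest there. That of the brightest probes of Gabra5, Gabrb1, Gabrb2 and Gabrd was lowest there. It was 31.1 for Gabra5 against 132 to 282 on the other arrays, 29.9 for Gabrb1 against 85.8 to 292, 46.0 for Gabrb2 against 114 to 267 and 160 for Gabrd against 487 to 714. On C10-434, 6 of the 7 subunits gave a value, as the Gabra4 spot was flagged, and 5 to 7 did on the other arrays. The hemibrain signal was also taken alone, on a log2 scale less the 75th percentile of the array. There the 6 subunits of C10-434 lay on average 0.19 above their medians, against -0.36 to 0.16 on the other arrays. In the ratio they lay 1.09 above, against -0.44 to 0.45 on the other arrays. After each gene's median was subtracted, the median of these 6 subunits was 1.33 on C10-434, that of 8 neuronal markers 0.99, of 6 inhibitory neuron markers 1.28, of 6 astrocyte markers 0.44, of 6 oligodendrocyte markers 0.45, of 5 endothelial markers 0.37 and of 6 genes of dividing cells 0.42. The lists of regions gave 0.32 for cortex and hippocampus, 0.25 for cerebellum, -0.32 for thalamus and -0.52 for striatum, and the 5 microglial markers gave -0.24. The striatal and microglial values were the lowest of the 10 arrays. The part of the dim array in these values was not tested.

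**Figure D3:**
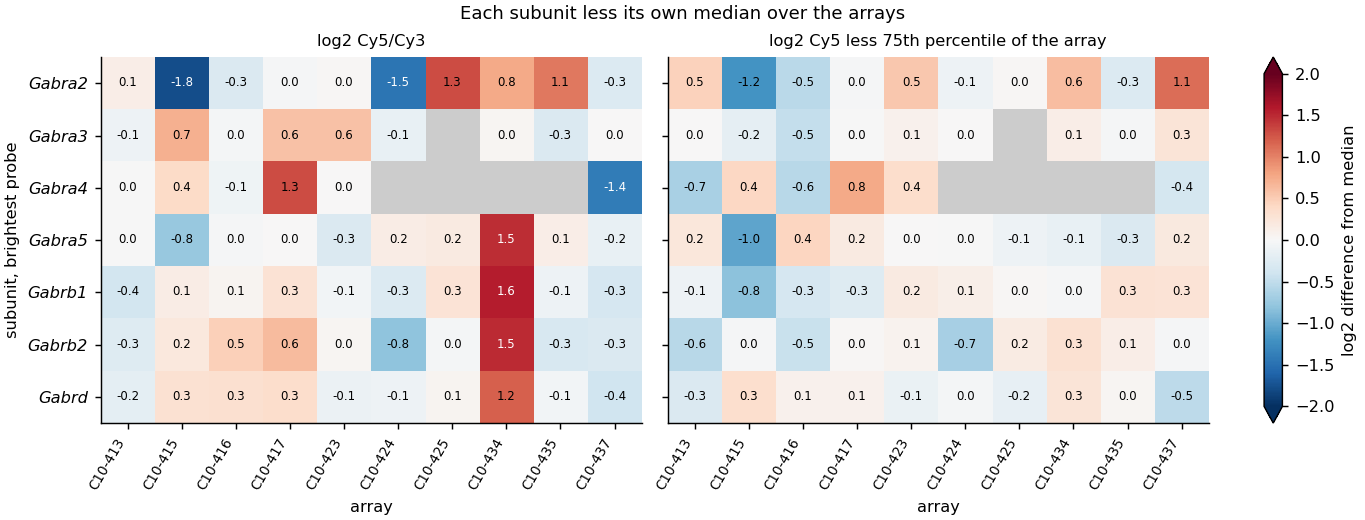
Log2 value of each subunit (brightest probe) less its own median over the arrays, for the ratio of Cy5 to Cy3 (left) and for Cy5 alone less the 75th percentile of the array (right). Gray cells are flagged spots. The column of C10-434 is the highest in the ratio for Gabra5, Gabrb1, Gabrb2 and Gabrd. In Cy5 alone its mean over the subunits with a value, 0.19, is also the highest, with the next array at 0.16.

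The arrays lie on 4 slides, and 2 of these hold 4 arrays each. The slide is the only batch named in the file headers, and slide and animals cannot be told apart. Between these slides, 0 of the 10 subunit probes with values on both were called at an adjusted p under 0.05 (limma), against 31 of 41122 probes (0.0754%). At an unadjusted p under 0.05 there were 4, against 9.90% of all probes. The adjusted p of the subunit probes lay between 0.0756 and 0.992, and 4 were higher and 6 lower on the second slide. Gabra4 could not be fitted, as all 4 of its spots on the second slide were flagged. With those spots kept it was lower there by a log2 difference of -1.42 ± 0.43 (SE, adjusted p = 0.277 from limma).

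The smallest adjusted p was that of the Gabrb2 probe A_51_P227679. Its ratio was 6.17 to 6.72 on the first slide and 5.27 to 5.33 on 3 arrays of the second, a difference of -1.16 ± 0.19 (SE, adjusted p = 0.0756 from limma). In a test of the 20286 probes that passed the Cy5 background flag on each of the 8 arrays, it was called (adjusted p = 0.0246). In Cy5 alone the difference was -0.29 ± 0.24 (SE, adjusted p = 0.724 from limma), and the brightest Gabrb2 probe differed by -0.26 ± 0.44 (SE, adjusted p = 0.971). Of the 8 probes with all 8 values, 2 did not overlap between the slides, against 5.65% of all probes. The dim Gabra3 probe A_52_P364645 ran from 3.00 to 4.31 over the first slide and from 0.38 to 2.99 over the second, with an adjusted p of 0.236 from limma. The brightest Gabra5 probe ran from 2.23 to 3.00 over the first slide and from 3.12 to 4.46 over the second, with an adjusted p of 0.501 from limma. In Cy5 alone its difference was -0.03.

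**Figure D4:**
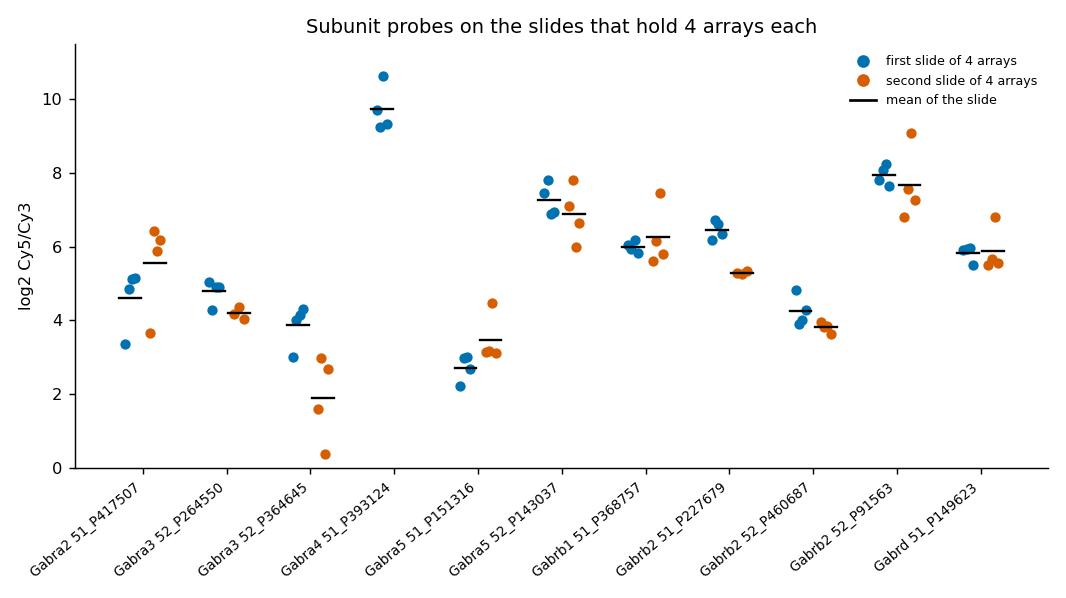
Log2 ratio of Cy5 to Cy3 of the 11 subunit probes on the 2 slides that hold 4 arrays each, 1 point per array, with the mean of the slide as a bar. The Gabra4 spots of the second slide were flagged and are not drawn, and the Gabrb2 probe A_51_P227679 lies at 5.27 to 5.33 on the second slide, under all 4 arrays of the first.

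Of 9 other GABA-A receptor subunits examined, 8 were found, and 5 were higher in the hemibrain, 1 was lower and 2 did not pass (limma, 1 probe per gene). The higher count was 2 with the filter on background in Cy5, 2 with normexp and 1 against a log2 ratio of 1. Of the 5, Gabrq was well above background in Cy5 on 0 arrays, Gabrr2 on 2 and Gabre on 6. Over all genes, 41.0% were higher and 39.8% lower. The median of these 8 subunits was 0.31, and that of all genes 0.06. Gabrg1, a gamma subunit, stood out with a median of 8.87, but its Cy3 signal was well above background on 0 arrays, so that it was higher by at least 129-fold. The bound sets the mean Cy5 level against the lowest Cy3 signal of a probe well above background, or the probe's own where that was higher. It is open to dye bias. The retinal rho subunit Gabrr1 was at 0.31, and Gabrp, known outside the brain, was lower at -0.46. Gabra6, the cerebellar granule cell subunit, had a median of 0.41 (adjusted p = 0.1 from limma) and was well above background in Cy5 on 1 array. Its ratio was 4.31 on C10-413, where its Cy5 signal was highest (183, against a median of 15.9). The other arrays lay between -0.44 and 0.91.

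The genes that make, pack and clear GABA were mostly higher. Of 8 genes examined, 7 were higher and 1 was lower. Gad1, which makes GABA from glutamate, had a median of 8.30, Abat, which breaks GABA down, 6.99 and Slc32a1, which loads GABA into synaptic vesicles, 6.43. The low end held Slc6a13 (2.55), Aldh5a1 (0.47), the next enzyme of GABA breakdown, and Slc6a12 (-1.91), a betaine and GABA transporter known from kidney and liver, which was lower. Both GABA-B receptor genes were higher, Gabbr1 at 3.42 and Gabbr2 at 0.43, and against a log2 ratio of 1 the count was 1. The value of Gabbr2 depends on the probe, since another (A_52_P111145) had a median of 3.86.

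Of 18 genes of receptor clustering and trafficking, 17 were found, 13 higher and 4 lower. The highest were Lhfpl4 (5.08), which holds receptors at inhibitory synapses, Gabarapl1 (4.54) and Shisa7 (4.49), an auxiliary subunit. The lowest were Gabarap (-1.80), which binds the gamma subunit, Rdx (-1.46), the anchor of alpha5 receptors, and Mkln1 (-1.10), all lower, and Ubqln1 (-0.46) was also lower. The anchoring protein gephyrin (Gphn) was higher at 0.83. The chloride cotransporters went opposite ways. Slc12a5 (KCC2), which keeps chloride low in mature neurons, was at 6.12, and Slc12a2 (NKCC1), which is widespread outside neurons, at -0.66.

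Of 5 glycine receptor subunits, 4 were higher and Glra3 did not pass (median 0.15, adjusted p = 0.557 from limma). Glrb had a median of 4.92, and Glra2 was at least 21.1-fold higher, with Cy3 well above background on 0 arrays. Glra1 (0.52) and Glra4 (0.55) were not well above background in Cy5 on all arrays. Between the slides, 0 genes of these lists were called by limma at an adjusted p under 0.05.

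**Figure D5:**
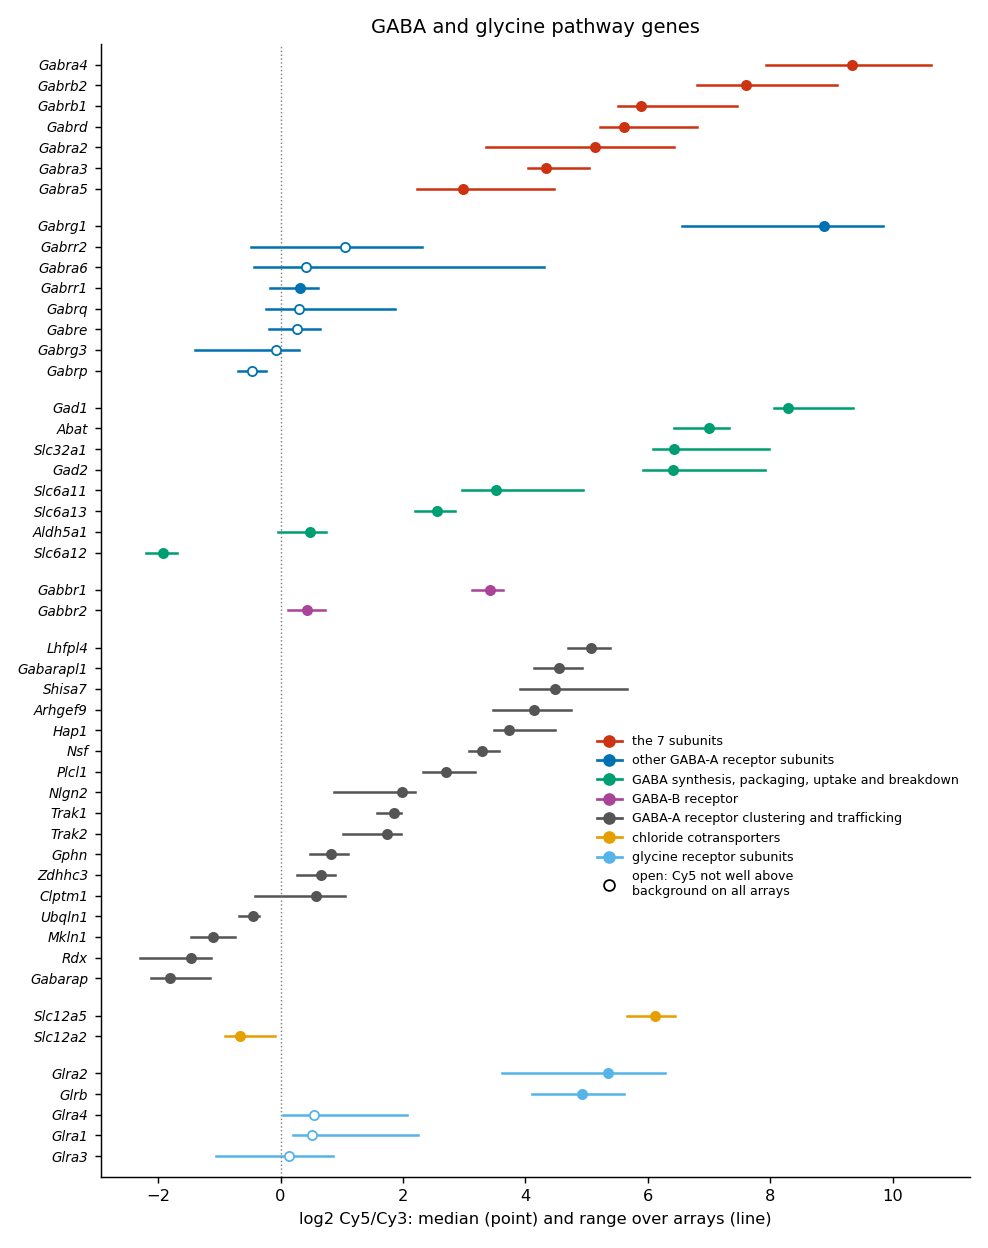
Median (point) and range over the arrays (line) of the log2 ratio of Cy5 to Cy3, 1 probe per gene, for the 7 subunits and 6 lists of related genes. Open points were not well above background in Cy5 on all arrays. The 7 subunits lie between 2.99 and 9.33, and of the other subunits drawn, Gabrg1 lies at 8.87 and the rest at 1.06 or below. Members and lists were chosen with earlier results of these data known, and some genes of the lists are not drawn.

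Over the arrays, the genes whose ratio moved most like the mean of the 7 subunits were Slc1a3, an astrocyte glutamate transporter, Fbxl16, Nrsn1, the potassium channel gene Kcnt1 and Chgb, a granule protein of secretory cells. The mean on each array was taken over the subunits that gave a value there. Pearson's r over 10 arrays was 0.96 for Slc1a3 and Fbxl16 and 0.95 for the other 3, the highest among 10508 genes well above background in both dyes on all arrays. Without C10-434 it was 0.92, 0.89, 0.88, 0.86 and 0.86 over 9 arrays. The arrays share slides and dyes, and these values are given as a description without a test.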

How the data were processed

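Hemibrain RNA of 10 mice was measured in Cy5 against another RNA in Cy3 on Agilent dual dye arrays. The authors deposited the scanner output of each array (Feature Extraction 10.10.1.1), whose processed signals are intensity values on a linear scale, already background-subtracted and dye-normalized, the log10 of their ratio per spot, and a table of log2 ratios per probe. The deposited log2 values correlated with the scanner ratios at 0.997 or more on every array, and 80.0% to 93.3% lay within 0.001, so they are log2 of Cy5 over Cy3, not centred further.

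From the scanner files, log2 of Cy5 over Cy3 processed signal was computed, leaving out control spots and flagged outliers and averaging repeated spots. The flag for well above background had to be set on at least 0.5 of a probe's spots. Probes were named by RefSeq accession (GRCm38.p6, for names alone, since the array design is annotated on another build), and 27198 (66.1%) matched. Tests were limma 3.58.1 in R 4.3.3, adjusted over all probes, and exact paired permutation tests, and the limma scripts were tested on simulated data. P-values measure the spread over 10 arrays, each of 1 mouse of unsettled diet. That spread holds the spread of the Cy3 signal as well as that of the hemibrain signal. The SD of the log2 Cy3 signal exceeded that of the log2 Cy5 signal for 10 of the 11 subunit probes. A gene in a list is represented by its brightest probe, by the product of both dyes. All probes of the 7 genes are named, and of each list the 3 highest and 3 lowest medians among genes well above background in Cy5 on all arrays. Gabrp, Gabra6, Gabrq, Gabrr2, Gabre, Gphn, Ubqln1, Glra1, Glra3 and Glra4 were named outside this rule, after their values were seen. Some genes of the lists are not reported here and were left out of their counts. The genes and lists were chosen with earlier results of these data known. Alternatives were loess (span 0.3), median centring, normexp (offset 50) on the foreground and background signals, the deposited table, only probes well above background, flagged spots kept, slide as a random block, a log2 ratio of 1 as the null, the mean over probes, Cy5 alone and arrays left out. Precision is limited by how many arrays there are and by signal over background.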

Additional observations from a re-analysis of the deposited data

Results flagged for a closer look

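A gap test (Dixon's, 10 arrays, 95% level) was applied to 20 measures, and 6 of them had 1 array beyond the allowed gap. About 1 of 20 would do so by chance, and measures that share an array are not independent. The array was C10-434 in all 6. Gabra5 (A_51_P151316) stood at 4.46 there, against 2.23 to 3.17 elsewhere, Gabrb1 at 7.46, against 5.52 to 6.18, and Gabrd at 6.80, against 5.21 to 5.95. After each gene's median was subtracted, the 6 subunits with a value on C10-434 stood at 1.33, against -0.29 to 0.35 for those with a value elsewhere. The inhibitory neuron markers stood at 1.28, against -0.24 to 0.27, and the neuronal markers at 0.99, against -0.33 to 0.32. The cause was not tested.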

How the results depend on the processing

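All 11 subunit probes were higher in the hemibrain under each alternative run except the filter on background in Cy5, where 10 were and the dim Gabra3 probe A_52_P364645 was not tested. With normexp the medians fell to 2.27 (Gabra2), 3.11 (Gabra3), 5.50 (Gabra4), 2.16 (Gabra5), 4.92 (Gabrb1), 6.54 (Gabrb2) and 5.17 (Gabrd). The mean over all probes gave 3.90 for Gabra3, 5.03 for Gabra5 and 6.01 for Gabrb2. The count of other subunits higher in the hemibrain was 2 with normexp, 2 with the filter on background and 1 against a log2 ratio of 1, and that of lower ones 0 with the filter and against a ratio of 1. For glycine receptor subunits the higher count was 2 under each of these 3. Against a log2 ratio of 1, 1 GABA-B gene was higher, and 2 clustering genes and 0 chloride cotransporters were lower. Between the slides, 1 subunit probe was called with the filter and 0 in the other settings. Over all probes the slide calls numbered 31, then 71 with the filter, 0 with normexp, 2319 in Cy5 alone and 0 to 18 with 1 array left out. Slide differences that changed sign, none of them past the threshold before or after, were Gabra3 (0.40 with normexp, 0.19 in Cy5 alone), Gabra5 (-0.027 in Cy5 alone), Gabrb2 (0.34 with normexp, 0.079 in Cy5 alone) and Gabrd (-0.069 in Cy5 alone). With 1 array left out, they ran from -0.14 (without C10-434) to 0.47 for Gabrb1, from -0.73 to 0.035 (without C10-424) for Gabrb2, and from -0.25 (without C10-434) to 0.18 for Gabrd, which was also negative, at -0.05, without C10-423. With slide as a random block the within-slide correlation was 0.027, and 31263 probes were called in place of 31681. Among the alternative values, 247 stayed within their limits (1 SD over the arrays for a median, 1.5 times for a count, sign and side of the threshold for a slide difference), 21 moved and 10 changed sign. The cause of each change was not tested. Ratios of probes faint in Cy3 are limited by signal over background.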
